A study of Mus musculus with 10 samples.

Results

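The JAK kinases and STAT factors were read in skin of grafted C3H/HeJ mice to ask whether transcripts of the drug's targets, and of the factors they activate, changed under baricitinib. Baricitinib inhibits JAK1 and JAK2. The members were Jak1, Jak2, Jak3, Tyk2, Stat2, Stat3, Stat5a, Stat5b and Stat6, and every probe set annotated to exactly 1 of these 9 genes was taken. This gave 20 of the 45037 probe sets on the array, 8 for the kinases and 12 for the STAT factors. A further 2 probe sets carried the symbol of a member together with that of another gene and were left out.

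Each mouse was a C3H/HeJ recipient of alopecic skin from a C3H/HeJ donor with spontaneous hair loss, and alopecia areata (AA) passes to the host with such a graft. Baricitinib was released from an implanted pump from the time of grafting to 5 mice, and 5 mice received vehicle in the same way. Skin was sampled at week 12, with 1 Affymetrix array per mouse. The arrays are called B1 to B5 (baricitinib) and V1 to V5 (vehicle) by the replicate number in their titles. Hosts were young adults without disease at grafting, by the methods, and the sources used here do not say whether graft or host skin was taken. Both groups carried the graft and a pump.

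Cytokine receptors have no kinase activity of their own. JAK kinases bound to their tails are activated when a ligand joins the receptor chains, and they phosphorylate both the receptor and the STAT proteins that dock there. Phosphorylated STAT dimers move to the nucleus and switch on target genes, among them feedback inhibitors and, in several cases, STAT genes themselves. In AA skin the pathway carries interferon signals and the signals of cytokines that sustain cytotoxic T cells. Baricitinib blocks the enzymes, so that the amount of transcript of a kinase is a separate quantity from its activity, which was not measured on these arrays.

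Among the promoters of the members, that of Stat2 held the letters of an interferon-stimulated response element (ISRE), and it is shown because Stat2 had the widest range over the arrays. The 250 bases before the annotated start of Stat2 lie at chr10:128270248-128270497 on the plus strand of GRCm38.p6 (RefSeq). The first run of capitals is the ISRE match (GAAA, any 2 bases, GAAA), read on the minus strand. The second run is TTC and GAA with 4 bases between them, a form of the interferon-gamma activated site (GAS).
Stat2 promoter: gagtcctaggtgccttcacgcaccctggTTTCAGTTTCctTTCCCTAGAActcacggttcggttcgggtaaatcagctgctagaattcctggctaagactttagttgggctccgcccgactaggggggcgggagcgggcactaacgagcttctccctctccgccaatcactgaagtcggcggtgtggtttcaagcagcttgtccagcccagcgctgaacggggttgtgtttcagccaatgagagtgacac
The ISRE letters span bases 222 to 213 before the start and the second match bases 210 to 201, with no overlap. All 9 members had a promoter in the RefSeq table, in 11 windows, as Stat5a and Stat5b have several starts. Both strands were searched. ISRE letters were found in 1 of the 11 windows, against 2.98% of all 32851 windows of the same length. The usual GAS letters, TTC and GAA with 3 bases between them, were in 0 of 11 (7.02% of all windows) and the form with a spacing of 4 in 1 of 11 (5.85%). A match of letters is not a measured site of binding.

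The arrays were not equal in quality. V5 correlated with the other arrays at r of 0.697 to 0.729, against 0.946 to 0.994 among the other 9, so values are also given without it. The study's methods removed 1 vehicle array after quality control, and the labels do not name it. The difference between 3' and 5' control probe sets of Gapdh and beta-actin (the 3'/5' gap, larger in poorer RNA) was 0.99 to 1.18 log2 on the baricitinib arrays. It was 3.03, 2.0, 4.35, 1.01 and 4.06 on V1 to V5, so that V4 was the one vehicle array near the baricitinib values. The tissue had skin markers throughout, with the basal keratin gene Krt5 at 13.04 to 13.67 log2 on all arrays. Krt14, another basal keratin gene, was lower on V5 (10.91) than on the other arrays (12.67 to 13.15).

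Transcripts of the JAK and STAT genes gave no call between baricitinib treated and vehicle control skin. In limma, 0 of the 20 probe sets passed an adjusted p of 0.05, as did 0 of all 45037 (0%). At an unadjusted p under 0.05 there was 1 of 20, the brightest Stat6 probe set, which was lower in baricitinib treated skin, against 14.8% of all probe sets, 5.62% lower and 9.21% higher. The groups did not overlap at 0 of the 20 probe sets, against 5.12% of all, 2.03% lower and 3.09% higher. Differences (baricitinib minus vehicle, log2) ran from -0.84 to 0.62, with 11 of 20 negative (55%) and a median of -0.07. Over all probe sets 55.4% were negative and the median was also -0.07. The smallest adjusted p of a member was 0.230. With array quality weights, under which V5 and V4 counted least, 3 of the 20 and 9676 of all probe sets passed. Among baricitinib arrays B1 counted most, with a weight of 5.43 against 1.36 to 1.56 for B2 to B5. The vehicle values then came mainly from V1 to V3, which had wide 3'/5' gaps. RNA quality and treatment cannot be told apart at that setting.

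Without V5 the same test called 0 of 20 and 0 of all probe sets (0%). At an unadjusted p under 0.05 there were then 4 of 20, in Jak1, Jak3, Stat2 and Stat6 and all lower in baricitinib treated skin. The share in that direction was 20% of member probe sets and 13.5% of all probe sets (27.9% in either direction). Each of the 4 was the brightest probe set of its gene. The other probe sets of Jak1 gave 0.15 and 0.34 without V5, that of Stat6 -0.04 and that of Stat2 -0.83. Of the vehicle arrays left, V1 to V3 had wide 3'/5' gaps, so RNA quality and treatment cannot be told apart at this setting either. Counted with the brightest probe set of each gene, 4 of 9 members and 16.1% of 18193 genes were lower at that level (0 and 13.3% higher). The median difference became -0.15, with 14 of 20 negative, against -0.04 and 54.9% over all probe sets, and the groups did not overlap at 0 of 20 (8.53% of all, 4.11% lower and 4.42% higher).

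**Figure D1:**
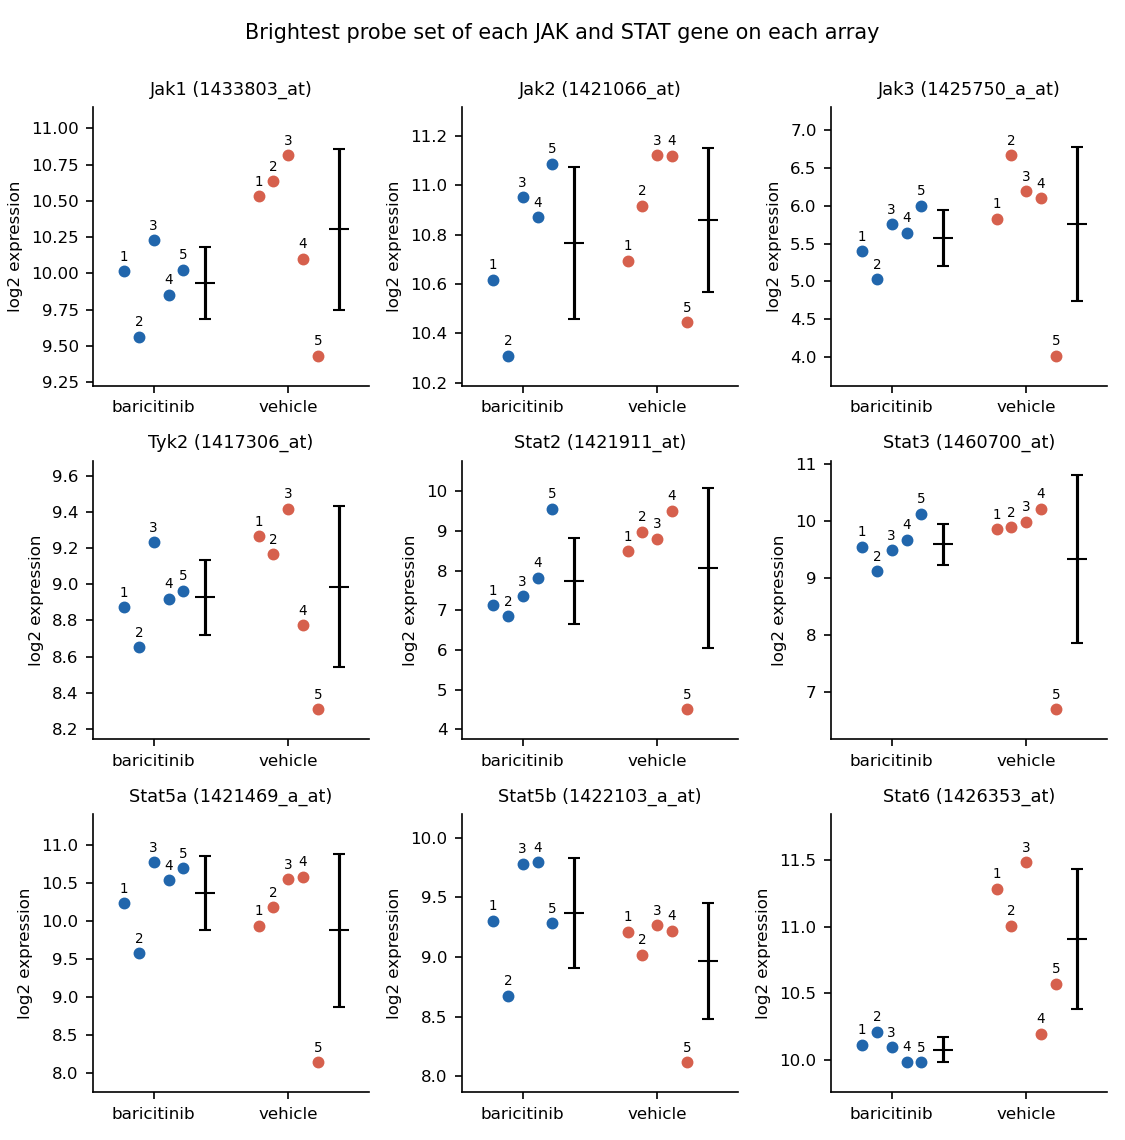
Log2 expression of the brightest probe set of each JAK and STAT gene (1 panel per gene, own axis) in baricitinib treated (blue) and vehicle control (orange) skin, numbered by replicate, where black bars give mean ± SD over 5 arrays. The groups overlapped in every panel, and V5 was the lowest array in 7 of the 9, all but Jak2 and Stat6.

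Jak1 encodes the kinase shared by the interferon, gamma chain and interleukin-6 family receptors, and it is a direct target of baricitinib. Its brightest probe set (1433803_at) was at 10.01, 9.56, 10.23, 9.85 and 10.03 log2 in B1 to B5 and at 10.53, 10.64, 10.81, 10.10 and 9.43 in V1 to V5. V1 to V3 lay above every baricitinib array, whereas V4 lay among them and V5 below them. The difference was -0.37 ± 0.27 (SE, limma adjusted p = 0.470). Without V5 it was -0.58, with a 95% interval of -0.98 to -0.19 and a limma adjusted p of 0.0936.

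The other Jak1 probe sets had the opposite sign. Probe set 1433805_at was at 8.95, 8.41, 9.28, 9.38 and 9.37 log2 in B1 to B5 and at 8.59, 9.06, 8.94, 9.12 and 7.06 in V1 to V5, a difference of 0.52 (limma adjusted p = 0.480), and of 0.15 without V5. The dimmer 1433804_at ranged from 5.62 to 6.79 and from 4.46 to 6.58, with a difference of 0.62 (limma adjusted p = 0.455). The mean of the 3 Jak1 probe sets differed by 0.26, and by -0.03 without V5. The probe sets of Jak1 thus did not give 1 direction.

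Jak2 encodes the kinase of the interferon-gamma, growth hormone and granulocyte-macrophage factor receptors and is the other direct target. Its brightest probe set (1421066_at) was at 10.62, 10.31, 10.95, 10.87 and 11.09 log2 in B1 to B5 and at 10.69, 10.92, 11.12, 11.12 and 10.44 in V1 to V5. The groups covered nearly the same range. The difference was -0.09 ± 0.20 (SE, limma adjusted p = 0.790). Its unadjusted 95% interval was -0.54 to 0.36, which does not allow for the unequal RNA quality of the groups. The second probe set (1421065_at) gave -0.09 (interval -0.83 to 0.64), from 6.52 to 8.06 in baricitinib treated and 6.61 to 8.02 in vehicle control skin. Both Jak2 probe sets were highest in B5 among baricitinib arrays, and both agreed in sign with all arrays and without V5 (-0.20 and -0.27).

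Jak3, the kinase bound to the common gamma chain of lymphocyte cytokine receptors, is largely a gene of lymphoid cells. Its single probe set with 1 symbol (1425750_a_at) was at 5.40, 5.03, 5.76, 5.65 and 6.0 log2 in B1 to B5 and at 5.83, 6.67, 6.19, 6.10 and 4.02 in V1 to V5. V2 to V4 lay above every baricitinib array, V1 lay within their range, and V5 was the lowest of all. The difference was -0.19 ± 0.45 (SE, limma adjusted p = 0.798) and -0.63 without V5 (interval -1.13 to -0.13, limma adjusted p = 0.119). T cell markers had a similar order. The mean of the 8 measured of 9 T cell marker genes was 6.21 to 7.04 in B1 to B4, 8.23 in B5, 8.16 to 8.59 in V1 to V4 and 6.37 in V5. Of the 8 genes, 7 had a negative difference, against 49.7% of all genes. Cd8a weighed most in this mean, at 4.22 to 4.93 in B1 to B4 and 10.17 to 11.03 in V1 to V4. Other genes of the list overlapped between these arrays, such as Cd4 (5.67 to 5.85 and 5.68 to 6.64) and Cd3g (7.55 to 9.95 and 9.06 to 10.06). In whole skin, fewer T cells and less RNA per cell cannot be told apart, and the part of T cells in the Jak3 values was not tested.

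Tyk2, the kinase that pairs with JAK1 at type I interferon receptors, differed least among the brightest probe sets with all 10 arrays. Its probe set 1417306_at was at 8.65 to 9.23 log2 in baricitinib treated and 8.31 to 9.42 in vehicle control skin, a difference of -0.06 ± 0.23 (SE, limma adjusted p = 0.886, interval -0.56 to 0.45). Without V5 the difference was -0.23, and those of Stat5a, Stat5b and Jak2 were then nearer to 0. A dim second probe set (1432576_at) was at 4.36 to 4.70 and 4.45 to 5.53, with a difference of -0.43 (limma adjusted p = 0.360).

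**Figure D2:**
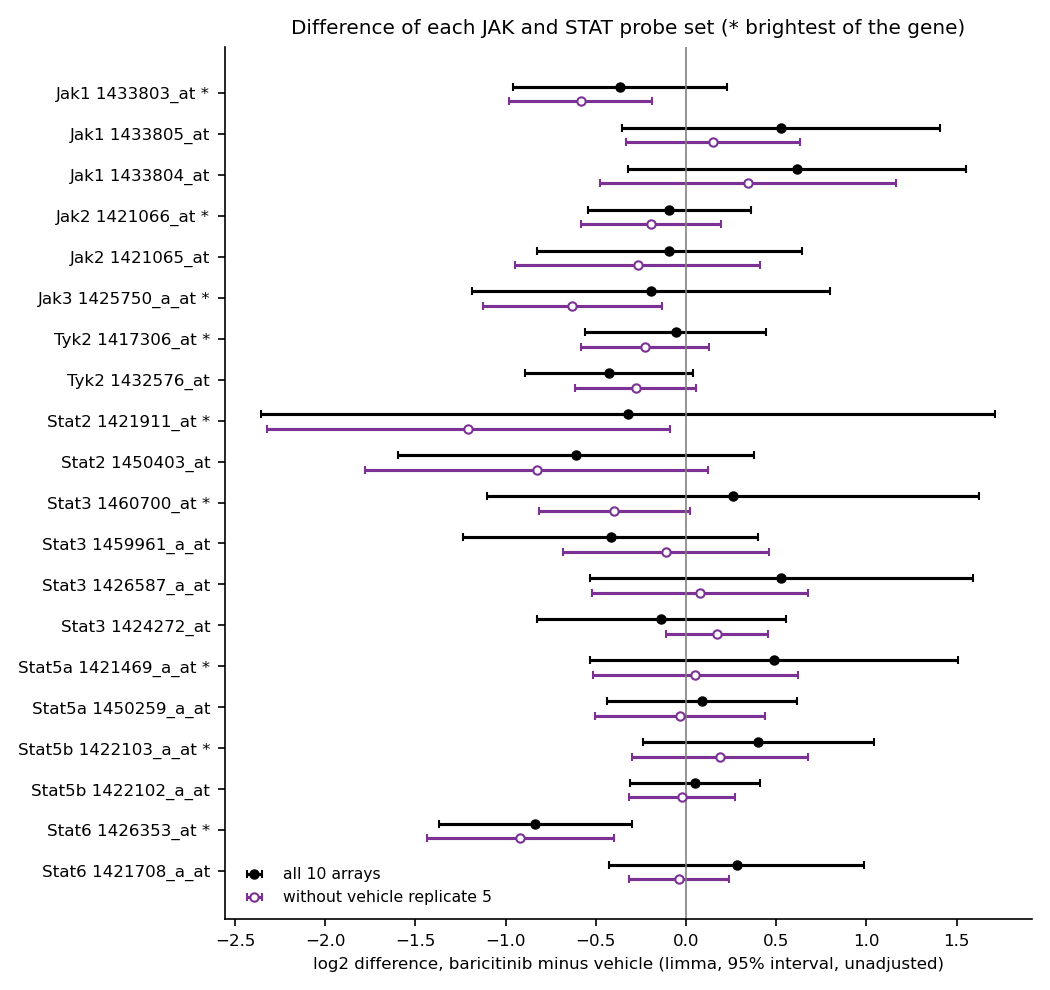
Log2 difference (baricitinib minus vehicle) of each of the 20 probe sets with its unadjusted 95% interval from limma, from the 10 arrays (filled circles) or the 9 without V5 (open circles). With all arrays, only the interval of the brightest Stat6 probe set (-1.37 to -0.30) left out 0.

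Stat2 encodes the factor that joins IRF9 in the complex formed under type I interferon, which binds ISRE letters like those printed above. Its brightest probe set (1421911_at) was at 7.13, 6.85, 7.35, 7.82 and 9.56 log2 in B1 to B5 and at 8.49, 8.98, 8.81, 9.51 and 4.51 in V1 to V5. B1 to B4 lay below V1 to V4, and a single array of each group went the other way. B5 was the highest of all arrays and V5 the lowest. The difference was -0.32 ± 0.91 with all arrays (SE, limma adjusted p = 0.840) and -1.21 without V5 (interval -2.32 to -0.09, limma adjusted p = 0.157). With the 3'/5' gap as a covariate it was -1.87 (limma adjusted p = 1.0).

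The second Stat2 probe set (1450403_at) gave a similar order on the 9 other arrays, with B1 to B4 again below V1 to V4. It was at 5.45, 5.15, 5.55, 5.61 and 7.25 log2 in B1 to B5 and at 6.32, 6.54, 6.21, 7.45 and 5.53 in V1 to V5, a difference of -0.61 (limma adjusted p = 0.472) and -0.83 without V5 (limma adjusted p = 0.228). With the gap as a covariate it was -1.42 and became the single member probe set at an unadjusted p under 0.05 (limma adjusted p = 1.0), in place of that of Stat6. On V5 the probe sets disagreed. The brighter one lay 1.69 to 2.60 log2 above the other on 9 arrays but 1.02 below it there (difference -1.02).

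The genes with profiles nearest to that of Stat2 were also found. Likeness was taken as the root mean square distance between array profiles, each centred on its own mean, over the brightest probe sets of 18193 genes. Over the 9 arrays without V5 the nearest were Samhd1, an interferon-induced nucleotide hydrolase that restricts viruses (0.14 log2), AW112010, an interferon-inducible transcript (0.16), and Bst2, which encodes the antiviral membrane protein tetherin (0.18). Samhd1 was at 9.37, 8.94, 9.88, 10.18 and 11.75 log2 in B1 to B5 and at 10.68, 11.13, 10.83 and 11.75 in V1 to V4. As with Stat2, B5 and V4 were the highest arrays. Over all 10 arrays the nearest were AW112010 (0.17), Tcaf2 (0.23) and Aif1, a macrophage gene (0.25). Macrophage markers (6 of 6 measured) averaged 9.92 to 10.57 in baricitinib treated and 8.55 to 10.52 in vehicle control skin, and T cell markers had the values given with Jak3. The part of either cell type in the Stat2 values was not tested.

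**Figure D3:**
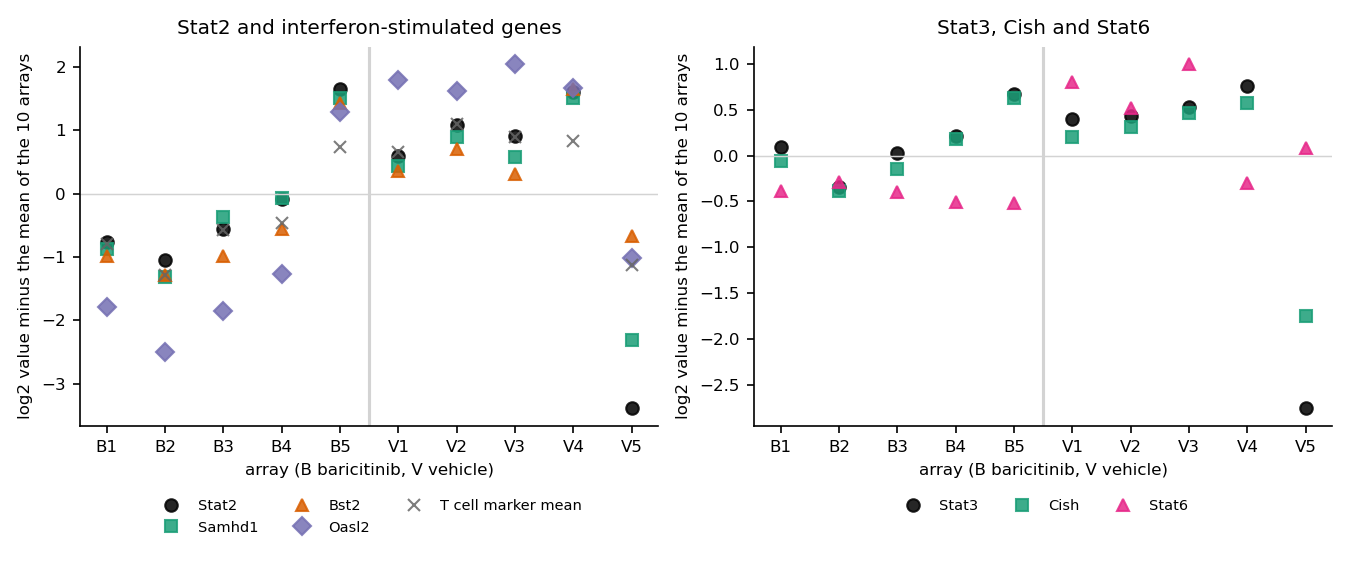
Log2 value minus the mean of the 10 arrays for each array, B for baricitinib and V for vehicle, of Stat2 with the interferon-stimulated genes Samhd1, Bst2 and Oasl2 and the mean of 8 T cell markers (left), and of Stat3, Cish and Stat6 (right), each by its brightest probe set. Stat2 was at 6.85 to 7.82 log2 in B1 to B4, 9.56 in B5, 8.49 to 9.51 in V1 to V4 and 4.51 in V5.

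Stat3 encodes the factor activated by interleukin-6 family and interleukin-10 family cytokines, and in skin it is needed for wound closure and hair cycling. Its brightest probe set (1460700_at) was at 9.54, 9.11, 9.48, 9.66 and 10.12 log2 in B1 to B5 and at 9.85, 9.89, 9.98, 10.21 and 6.70 in V1 to V5. B1 to B4 lay below V1 to V4, by a smaller margin than for Stat2, and B5 again lay among the vehicle arrays. The sign depended on V5, with a difference of 0.26 (limma adjusted p = 0.805) over all arrays and -0.40 without it (interval -0.82 to 0.02, limma adjusted p = 0.196).

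The 3 dimmer Stat3 probe sets did not settle the direction. In the order below they gave -0.42, 0.53 and -0.14 over the 10 arrays, and -0.11, 0.08 and 0.17 over the 9 without V5. Probe set 1459961_a_at was highest in V5 (9.81, against 7.47 to 8.65 on the other arrays), where the brightest probe set was lowest. Probe set 1426587_a_at ranged from 7.23 to 8.12 in baricitinib treated and 5.44 to 8.35 in vehicle control skin, and the dim 1424272_at from 4.31 to 4.70 and 4.06 to 5.80.

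The gene nearest to Stat3 over the 9 arrays was Cish, a SOCS family inhibitor that is induced through STAT5 (distance 0.06 log2, against 0.12 for the next genes, Spaca9 and Tapbp, the latter encoding tapasin of the peptide loading complex). Cish was at 9.40, 9.08, 9.32, 9.65 and 10.10 log2 in B1 to B5, at 9.67, 9.78, 9.93 and 10.04 in V1 to V4 and at 7.71 in V5. As for Stat3, B2 was the lowest of the 9 arrays, and B5 and V4 the highest. Over all 10 arrays, where V5 carries most of the spread, the nearest genes were Afap1l2, Ccdc12 and Ckmt1 (0.15 to 0.16).

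Stat5a and Stat5b encode close paralogues that act under growth hormone, prolactin and interleukin-2 family cytokines. Probes of paralogues may bind the transcript of the other gene, which was not tested here. The brightest Stat5a probe set (1421469_a_at) was at 10.23, 9.57, 10.77, 10.54 and 10.69 log2 in B1 to B5 and at 9.94, 10.18, 10.54, 10.58 and 8.14 in V1 to V5. Apart from V5 the groups shared 1 range. Stat5a differed by 0.49 (limma adjusted p = 0.539), and by 0.05 without V5 (interval -0.52 to 0.62).

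The brightest Stat5b probe set (1422103_a_at) was at 8.67 to 9.79 log2 in baricitinib treated and 8.12 to 9.26 in vehicle control skin, a difference of 0.40 (limma adjusted p = 0.468) and of 0.19 without V5 (interval -0.30 to 0.68). The dim 1450259_a_at of Stat5a was at 3.52 to 4.38 and 3.35 to 4.37, with a difference of 0.09 (limma adjusted p = 0.828). For 1422102_a_at of Stat5b the ranges were 4.95 to 5.21 and 4.69 to 5.30, with a difference of 0.05 (limma adjusted p = 0.860). By profile, Plod1, Slc6a14 and Eif4e3 lay nearest to Stat5a over all arrays (0.13 to 0.17 log2), and Vwa5a, Plod1 and Gnb4 over the 9 (0.13 to 0.15). Plod1 encodes a collagen lysyl hydroxylase, and it was the one gene named in both.

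Stat6 encodes the factor of interleukin-4 and interleukin-13 signalling, and with all 10 arrays it had the largest difference of the 20 probe sets. Without V5 that of Stat2 was larger (-1.21). Its brightest probe set (1426353_at) was at 10.11, 10.21, 10.09, 9.98 and 9.98 log2 in B1 to B5 and at 11.29, 11.01, 11.49, 10.19 and 10.57 in V1 to V5. Baricitinib arrays were tightly grouped (10.07 ± 0.10, SD, n = 5) and vehicle arrays spread (10.91 ± 0.53). V4 lay just inside the baricitinib range, below B2, so the groups overlapped at that array alone. The difference was -0.84 ± 0.24 (SE, limma adjusted p = 0.230), and -0.92 without V5 (limma adjusted p = 0.0789). Without V4 it was -1.01 and passed (limma adjusted p = 0.0455), at a setting that called 848 probe sets in all. Every vehicle array left at that setting had a wide 3'/5' gap, so RNA quality and treatment cannot be told apart there.

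The second Stat6 probe set did not show the difference. Probe set 1421708_a_at was at 7.29, 7.29, 7.38, 7.63 and 7.62 log2 in B1 to B5 and at 7.25, 7.58, 7.57, 7.53 and 5.88 in V1 to V5. Apart from V5 the groups shared 1 range, and the difference was 0.28 (limma adjusted p = 0.602) over all arrays and -0.04 without that array (interval -0.32 to 0.24).

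Probe sets of Stat6 and of Jak1 drew apart on the arrays with a wide 3'/5' gap. The brightest Stat6 probe set lay 2.35 to 2.92 log2 above the other on the baricitinib arrays and 2.66 above it on V4. On V1, V2, V3 and V5 this distance was 4.04, 3.43, 3.92 and 4.69. The brightest Jak1 probe set lay 0.47 to 1.15 above 1433805_at on the baricitinib arrays, 0.98 above it on V4, and 1.94, 1.58, 1.87 and 2.38 above it on V1, V2, V3 and V5. Its distance to 1433804_at was 3.07 to 4.16, 3.52, and 5.73, 4.45, 5.14 and 4.98 in the same order.

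For Jak2 the probe sets kept their distance, at 3.03 to 3.79 on the baricitinib arrays and 3.10 to 3.83 on the vehicle arrays. Of the 11 pairs that could be formed in the 8 genes with several probe sets, V1 to V3 lay outside the baricitinib range in 4, and in 3 of these, those of Jak1 and Stat6, V4 lay inside it. The pairs were examined after the values of the members had been seen. With the 3'/5' gap as a covariate the brightest Stat6 probe set differed by -0.42 with all arrays and -0.35 without V5 (limma adjusted p = 1.0 and 0.733), and that of Jak1 by -0.42 and -0.32 (limma adjusted p = 1.0 and 0.766). The gap hardly varied among baricitinib arrays, so RNA quality and treatment cannot be told apart in these fits.

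**Figure D4:**
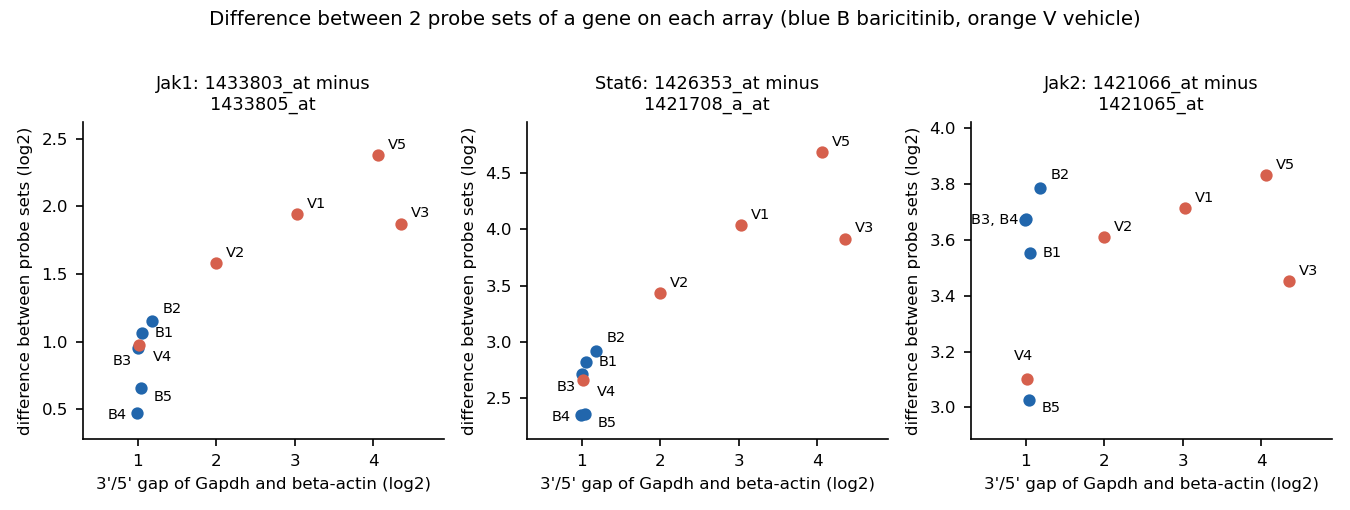
Difference in log2 value between 2 probe sets of Jak1 (left), Stat6 (middle) and Jak2 (right) on each array, against its 3'/5' gap (log2), for baricitinib (B, blue) and vehicle (V, orange) arrays. V4, with a gap of 1.01, lay among the baricitinib arrays for Jak1 (0.98) and Stat6 (2.66).

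Levels of the other marker lists, which were not tested as lists, are given as the mean log2 value of their genes on each array. The 6 measured epidermal keratinocyte genes averaged 11.77 to 12.38 log2 on the baricitinib arrays and 12.97, 12.76, 13.16, 12.62 and 12.04 in V1 to V5, and overlapped at V5. Of the 6, 5 had a negative difference. Adipocyte markers (4 of 5 measured) averaged 9.78 to 11.40 against 8.14 to 9.55, mast cell markers (5 of 5) 8.70 to 10.06 against 6.43 to 8.06, and endothelial markers (5 of 5) 7.04 to 8.47 against 6.52 to 6.96. The means of the last 3 lists did not overlap between groups. The others overlapped, with B cell markers (3 of 4 measured) at 4.07 to 4.94 against 4.59 to 6.24, skeletal muscle markers (5 of 5) at 10.53 to 12.47 against 9.76 to 11.70, hair shaft markers (5 of 5) at 6.93 to 12.05 against 5.93 to 11.31, fibroblast markers (5 of 5) at 11.84 to 12.53 against 11.58 to 12.01, and neutrophil markers (4 of 5) at 6.87 to 7.85 against 6.42 to 8.10. Single genes of the adipocyte, mast cell and endothelial lists did overlap. Among them were Adipoq (9.83 in B5, 10.16 in V3), Cpa3 (9.56 in B5, 10.40 in V5) and Tek (9.03 in B5, 9.12 in V1). Others, such as Lep, Cma1 and Kdr, did not overlap. The part of the makeup of the skin in the values of any member was not tested.

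Receptor chains upstream of the JAK kinases gave 0 genes past the threshold of 25 measured of 28 (limma, smallest adjusted p 0.221). At an unadjusted p under 0.05, 4 were lower and 3 higher in baricitinib treated skin, against 6.22% and 9.81% of all genes, and the median difference was -0.14. Without V5, 9 were lower and 3 higher, against 16.1% and 13.3% of all genes. Il12rb1, a chain of the interleukin-12 and interleukin-23 receptors that signals through TYK2, was at 4.68, 4.45, 4.48, 4.53 and 4.97 log2 in B1 to B5 and at 5.05, 5.68, 6.10, 5.23 and 5.56 in V1 to V5. The groups did not overlap. Il12rb1 differed by -0.90 ± 0.22 (SE, limma adjusted p = 0.223). The leptin receptor gene Lepr, whose product signals through JAK2, was at 9.22, 9.08, 9.83, 9.30 and 9.01 in B1 to B5 and at 7.94, 8.63, 7.99, 8.76 and 7.84 in V1 to V5. It did not overlap either, in the other direction, and differed by 1.05 ± 0.24 (SE, limma adjusted p = 0.221). Il6st and Il12rb2 also did not overlap, both higher in baricitinib treated skin. Over all probe sets, 5.12% did not overlap. The genes named from this and the next 2 lists were chosen for a low p, so their lack of overlap is no separate support.

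Inhibitors of the pathway gave 0 of 19 genes past the threshold. At an unadjusted p under 0.05, 2 were lower and 1 higher, against 6.22% and 9.81% of all genes. The median difference was 0.08. Without V5 these counts were 4 and 2, against 16.1% and 13.3% of all genes. The genes with the lowest p were Socs3, a feedback inhibitor of JAK1 and JAK2 that STAT3 induces (difference -1.28, limma adjusted p = 0.221), and Ptprc, which encodes the leukocyte phosphatase CD45. Ptprc was at 10.04, 9.24, 10.42, 9.98 and 10.76 log2 in B1 to B5 and at 11.09, 11.30, 11.82, 10.81 and 10.80 in V1 to V5, without overlap (difference -1.08, limma adjusted p = 0.229). As CD45 is a marker of all leukocytes, its part as an inhibitor cannot be told apart from the number of leukocytes in the skin.

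Partner and target genes of the STAT factors gave 0 of 18 measured of 19 past the threshold. At an unadjusted p under 0.05, 3 were lower and 2 higher, against 6.22% and 9.81% of all genes, with a median of -0.19. Without V5, 7 were lower and 1 higher, against 16.1% and 13.3% of all genes. Oasl2, a target of the STAT2 complex, had the largest difference of those named (-2.45, limma adjusted p = 0.247), and Igf1, a target of STAT5 under growth hormone, differed by 0.96 (limma adjusted p = 0.248). Igf1 was at 9.51, 9.15, 9.87, 9.55 and 9.02 log2 in B1 to B5 and at 8.43, 8.99, 8.52, 8.93 and 7.44 in V1 to V5, and the groups did not overlap. Without V5 the medians of the receptor, inhibitor and target lists were -0.30, -0.06 and -0.11, against -0.06 over the brightest probe sets of all genes, and 0 genes of any list passed. With the 3'/5' gap as a covariate Lepr differed by 0.53, Socs3 by -0.73 and Igf1 by 0.36, each over 1.5 times nearer to 0 than without it (limma adjusted p = 1.0 for each). The values of Il12rb1, Ptprc and Oasl2 in that fit are not given here, so these genes do not stand for their lists.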

How the data were processed

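RNA from 10 skin samples was amplified, biotin labelled (NuGen) and read on Affymetrix Mouse Genome arrays. The log2 values per probe set were deposited by the authors, who obtained them with RMA (version not given in the sources used here) for this experiment alone. RMA adjusts arrays to each other, and array means were nearly equal (6.43 to 6.45 log2), but the deposited arrays did not share 1 distribution: the SD was 2.28 log2 on V5 and 2.71 to 2.79 on the rest. The number of arrays limits the precision.

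Groups and replicate numbers came from the sample titles. After removal of 64 control probe sets, 45037 were tested with no filter on level, of which 34945 had 1 symbol in the platform annotation, 932 several and 9160 none. A gene's brightest probe set is that with the highest mean over all arrays. The groups were compared by moderated linear models on the log2 values (lmFit and eBayes of limma 3.58.1, R 4.3.3), with two-sided p adjusted over all probe sets after Benjamini and Hochberg and a threshold of 0.05. The code was tested on simulated data. Intervals are unadjusted 95% intervals of that fit, and p-values measure only the spread between these samples.

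The members and gene lists were chosen with earlier results of these data known. Named genes were all members, the 2 genes of each pathway list with the lowest p, and, for the 3 members with the largest SD, the 3 genes with the nearest profile with and without V5. Among the alternatives were other scalings, a filter on dim probe sets, array weights, a replicate block, an RNA quality covariate, the mean of a gene's probe sets, and each array left out. The covariate on 9 arrays and the count at an unadjusted p were added after seeing the data.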

Additional observations from a re-analysis of the deposited data

Results flagged for a closer look

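A sample far from the rest of its group of 5 was found in 10 of the 56 groups examined. Of these, 9 were among the 40 groups of member probe sets. Chance gives about 1 in 20 for a single group, but the groups share arrays and are not independent. The share over all probe sets was not counted, so the member count cannot be read as a result about the members. Of the 10, 9 were V5. It was the lowest vehicle array for Jak1 1433805_at (7.06 log2, next 8.59), Stat2 1421911_at (4.51, next 8.49), Stat3 1460700_at (6.70, next 9.85), Stat5a 1421469_a_at (8.14, next 9.94), Stat5b 1422103_a_at (8.12, next 9.02), Stat6 1421708_a_at (5.88, next 7.25) and Oasl2 (8.41, next 11.04). It was the highest for Stat3 1459961_a_at (9.81, next 8.48) and Stat3 1424272_at (5.80, next 4.46). The remaining one was B5, the highest baricitinib array for Stat2 1450403_at (7.25, next 5.61).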

How the results depend on the processing

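At an unadjusted p under 0.05 the member count of 1 became 2 with median centring, quantile normalisation, cyclic loess or the RNA quality covariate on 9 arrays (added after seeing the data), 5 with array weights and 0 with the mean of a gene's probe sets. It was 1 to 4 with each array left out, 4 without V5 and 2 without B5 or V2. The share of all probe sets at that level was 14.8% in the main fit and 27.9% without V5. It was not counted for the other settings named here, so their member counts cannot be read as a result about the members. Array weights gave V5 0.03, V4 0.50 and B1 5.43, the largest. Past the adjusted threshold they called 9676 of all 45037 probe sets and 3 of the 20 of members, in place of 0. The share of members called was below that of all probe sets. They also called 20 pathway genes in place of 0, from lists with 25, 19 and 18 measured. The members were Jak1 (-0.62, limma adjusted p = 0.0173), Jak3 (-0.76, 0.0340) and Stat6 (-1.02, 0.00867), each by its brightest probe set. Leaving out each array gave 0 to 848 probe sets (848 without V4, 12 without B5), 0 to 1 of members (Stat6) and 0 to 1 pathway genes (Lepr), both without V4. Array weights and the fits without V4 or without V5 rest mainly on vehicle arrays with a wide 3'/5' gap. The replicate numbers did not pair the arrays (correlation of same-numbered deviations -0.23 to 0.09). The replicate block gave 0 calls over all probe sets, 0 of members, 1 member at an unadjusted p and 0 pathway genes.

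Signs turned as follows, and the cause was not tested. Median centring gave Stat5b 1422102_a_at -0.022. Cyclic loess gave Stat3 1460700_at -0.023 and 1424272_at 0.047. Array weights gave Stat3 1460700_at -0.33 and 1424272_at 0.10, Stat5a 1450259_a_at -0.037, Stat5b 1422102_a_at -0.14 and Stat6 1421708_a_at -0.087. The RNA quality covariate gave Jak1 1433805_at -0.13 and 1433804_at -0.28, Stat3 1460700_at -0.73, 1426587_a_at -0.54 and 1424272_at 0.13, Stat5a 1421469_a_at -0.16 and 1450259_a_at -0.24, and Stat6 1421708_a_at -0.18. On 9 arrays it gave Jak1 1433805_at -0.0061 and 1433804_at -0.22, Tyk2 1417306_at 0.038, Stat3 -0.50, -0.41 and 0.012, Stat5a -0.0061 and -0.21, and Stat6 1421708_a_at -0.069. The mean of the Jak1 probe sets was 0.26. With each array left out, ranges crossed 0 for Jak2 1421066_at (-0.20 to 0.022) and 1421065_at (-0.30 to 0.083), Jak3 (-0.63 to 0.032), Tyk2 1417306_at (-0.23 to 0.050), Stat2 1421911_at (-1.21 to 0.042), Stat3 1460700_at (-0.40 to 0.48) and 1424272_at (-0.26 to 0.17), Stat5a 1450259_a_at (-0.033 to 0.22), Stat5b 1422102_a_at (-0.022 to 0.13) and Stat6 1421708_a_at (-0.040 to 0.38). The filter at 5 log2 left out 3 dim member probe sets.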
